A study of Homo sapiens with 6 samples.

Results

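The 44 genes described here are DNA replication and G1/S genes, taken as a given list of origin, helicase, polymerase, nucleotide and E2F genes and measured among 62252 annotated genes. All 44 were found in the GENCODE 44 annotation, and all 44 passed the filter for testing. PolyA RNA was sequenced from K562, a human leukemia line with erythroid features, in 3 libraries without doxycycline (−Dox) and 3 with it (+Dox). Doxycycline (Dox) switches on a tet-inducible promoter that drives Flag-PCBP1, a tagged copy of the RNA-binding protein PCBP1. Both groups carried the Flag-PCBP1 cassette at AAVS1, placed by Cre recombination in K562flox cells that had been expanded from 1 clone, and the stable line was a puromycin-selected polyclonal pool. The dose and time of Dox for these libraries are not given in the sources used here. No culture with Dox but without the cassette was analysed here, so effects of Dox itself and of Flag-PCBP1 cannot be told apart. The labels number the replicates but do not say that they came from separate cultures, so p-values measure only the spread between these samples, which may be technical.

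A replication origin is licensed in G1, when ORC, CDC6 and CDT1 load the MCM2 to MCM7 helicase onto DNA, and it fires in S phase, when CDC45 and GINS join the helicase. Polymerase alpha-primase starts each strand, RFC loads the PCNA clamp, polymerases delta and epsilon extend, and FEN1 and LIG1 seal the Okazaki fragments. Most of these genes are classical targets of E2F factors, which cyclin E with its kinase helps to release from the pocket proteins at the G1/S border. In a bulk culture, fewer cells in S phase and less RNA per cell cannot be told apart.

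The summed estimated counts were 84177316, 80104627 and 74766040 in −Dox replicates 1, 2 and 3, and 70905656, 82263502 and 82449808 in +Dox replicates 1, 2 and 3. Between 981 and 32468 counts fell on each of the 44 genes in a library, and together they held 0.546% to 0.565% of the counts of a library. PCBP1 itself checked the labels, with 248, 269.5 and 267 CPM (counts scaled to library size and normalized by TMM) in −Dox and 1029.6, 936 and 1037 CPM in +Dox replicates 1, 2 and 3. By edgeR this was a log2 fold change of 1.94 with a standard error of 0.0551 (adjusted p = 5.22e-10). Reads of the cassette and of the endogenous gene were not separated. All 11 erythroid markers were detected, among them GATA1 at 127 TPM (a level scaled for transcript length and library size) and KLF1 at 59.6 TPM over the 6 libraries. Led by the fetal globin gene HBG2, they summed to 20863, 21169 and 20247 TPM in −Dox and to 20360, 20338 and 19866 TPM in +Dox replicates 1, 2 and 3. Of the 11, 3 rose and 3 fell, against 15.8% changed of all genes tested and 26.8% of those at or above the mean CPM of the lowest of the 44. The transcription factors TAL1 and KLF1 were among those that rose (log2 fold change 0.44 and 0.46, edgeR adjusted p = 8.34e-05 and 0.00121), and the cofactor LMO2, the embryonic globin gene HBZ and the transferrin receptor TFRC fell (−0.20, −0.40 and −0.34, edgeR adjusted p = 0.0219, 0.00213 and 0.000856). The remaining gene that rose is not named here, so these values do not give the largest rise. Without +Dox replicate 1, 1 of the 11 rose by a log2 fold change above 1, against 0 with all 6 libraries. Among 18 markers of other lineages, MS4A1 was at 0, and CD3E, CD79A, CD14, MPO, ELANE, S100A8, KRT5, KRT14 and DCN were each too low to be tested. PTPRC, LYZ, CD3D and EPCAM were present, at 45.5, 95.01, 47.1 and 34.6 TPM. The 6 lymphoid markers summed to 108, 105 and 98.96 TPM in −Dox and to 79.5, 76.7 and 101 TPM in +Dox, led by CD3D and PTPRC. The 6 monocyte and granulocyte markers, nearly all LYZ, summed to 94.4, 109 and 132 TPM in −Dox and to 73.3, 77.5 and 85.5 TPM in +Dox. The 6 epithelial and fibroblast markers, nearly all EPCAM, summed to 38.5, 37.9 and 35.5 TPM in −Dox and to 33.2, 31.96 and 34.5 TPM in +Dox. PTPRC and LYZ fell (edgeR adjusted p = 0.00161 and 0.00837), and the part of these and the erythroid markers in the results for the 44 genes was not tested.

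The promoters are shown because E2F factors bind DNA words that can be read directly in them. RefSeq promoter sequence on GRCh38.p14 was at hand for 39 of the 44 genes. MCM4, MCM5, GINS4, POLD3 and CCNE2 had no entry. The words TTTCCCGC, TTTCGCGC, TTTGCCGC and TTTGGCGC were searched on both strands from 250 bases before to 50 bases after the start. At least 1 of them was found in 20 of 39 promoters (51.3%), against 921 of all 27305 promoters (3.37%) and 653 of 12556 promoters of genes tested (5.20%). The shorter word CCAAT was found in 23 of the 39 (59.0%), against 35.7% of all promoters. A word was found in 2 of the 5 genes that rose below, in both genes that fell and in 16 of the 32 others with a promoter. Such a match describes the sequence and is not evidence of binding. The 250 bases before the start are printed for the 4 changed genes that held a word and, for contrast, for TK1, which held none. They are E2F2 (chr1:23531234-23531483, minus strand), POLA2 (chr11:65261712-65261961, plus strand), MCM6 (chr2:135876444-135876693, minus strand), UHRF1 (chr19:4909251-4909500, plus strand) and TK1 (chr17:78187053-78187302, minus strand). Each reads 5′ to 3′ towards the gene, and capitals mark the E2F words on either strand. In MCM6 a TTTGGCGC and, on the other strand, a TTTCGCGC overlapped at each of 2 places, so that its 4 matches form 2 runs.
E2F2: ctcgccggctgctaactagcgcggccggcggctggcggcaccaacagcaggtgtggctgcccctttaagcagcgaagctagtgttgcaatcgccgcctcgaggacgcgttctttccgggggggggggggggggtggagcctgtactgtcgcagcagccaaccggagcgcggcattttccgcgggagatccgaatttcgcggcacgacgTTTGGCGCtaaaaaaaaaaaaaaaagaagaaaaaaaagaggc
POLA2: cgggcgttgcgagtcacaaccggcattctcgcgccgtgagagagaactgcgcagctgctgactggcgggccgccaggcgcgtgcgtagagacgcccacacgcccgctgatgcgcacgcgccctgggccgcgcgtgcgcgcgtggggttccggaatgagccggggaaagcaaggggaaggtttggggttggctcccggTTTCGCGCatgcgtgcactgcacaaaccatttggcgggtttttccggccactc
MCM6: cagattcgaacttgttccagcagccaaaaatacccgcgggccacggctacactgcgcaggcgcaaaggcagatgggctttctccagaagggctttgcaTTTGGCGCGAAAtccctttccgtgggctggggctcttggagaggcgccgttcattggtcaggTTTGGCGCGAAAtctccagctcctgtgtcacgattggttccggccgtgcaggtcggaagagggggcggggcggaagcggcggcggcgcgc
UHRF1: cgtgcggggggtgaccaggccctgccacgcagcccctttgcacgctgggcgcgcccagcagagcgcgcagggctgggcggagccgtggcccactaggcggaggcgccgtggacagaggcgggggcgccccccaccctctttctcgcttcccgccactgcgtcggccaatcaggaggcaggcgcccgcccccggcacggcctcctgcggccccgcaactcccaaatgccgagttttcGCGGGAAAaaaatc
TK1: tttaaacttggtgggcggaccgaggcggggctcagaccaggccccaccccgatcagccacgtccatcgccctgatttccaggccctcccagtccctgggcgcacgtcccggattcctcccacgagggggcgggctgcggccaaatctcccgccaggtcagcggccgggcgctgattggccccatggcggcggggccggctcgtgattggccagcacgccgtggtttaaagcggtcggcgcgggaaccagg
The words began at −42 in E2F2, at −53 in POLA2, at −152, −148, −90 and −86 in MCM6 and at −14 in UHRF1, counting the base before the start as −1.

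Differences between the groups were small in replication and G1/S mRNAs, and UHRF1, at the low end, fell by 13.3%, while E2F2, at the high end, rose by 30.2%. Of the 44 genes, 7 changed (15.9%). E2F2, CCNE1, TK1, POLA2 and RFC1 rose, and MCM6 and UHRF1 fell. Of all 21045 genes tested, 15.8% changed, with 8.16% higher and 7.68% lower, so in this fit the share among the 44 was close to that of all genes tested. Among the 8243 genes whose mean CPM was at or above that of the lowest of the 44, 26.8% changed, a larger share than among the 44. With the replicate number as a block, 3 of the 44 and 2490 of 21045 genes changed, a smaller share among the 44. With an offset for transcript length, 5 of the 44 and 1883 of 21045 genes changed, a larger share among the 44. None of the 44 passed the limits of the study in this edgeR fit, whereas 1.46% of all genes tested did. Those limits also ask for a log2 fold change beyond 1 in either direction. By DESeq2, which the study used, 128 of all genes passed them higher and 131 lower, and 0 of the 44 did. Adjusted p is that of edgeR's two-sided quasi-likelihood test with Benjamini-Hochberg adjustment over all 21045 genes, except where another test or setting is named, which adjusts over the genes tested in it. The median log2 fold change of the 44 was 0.033, against 0.0061 for all genes tested, and 30 of the 44 lay within 0.1 of 0. With limma on log2(TPM + 1) both medians were −0.016, and leaving out 1 library put that of the 44 between 0.016 and 0.044. At an unadjusted p under 0.05, 9 were higher and 5 lower (31.8% of the 44), against 14.9% higher and 13.8% lower (28.6%) of all genes tested. The CPM values of the groups did not overlap for 17 members (38.6%), 13 higher and 4 lower, against 33.2% of all genes tested.

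**Figure D1:**
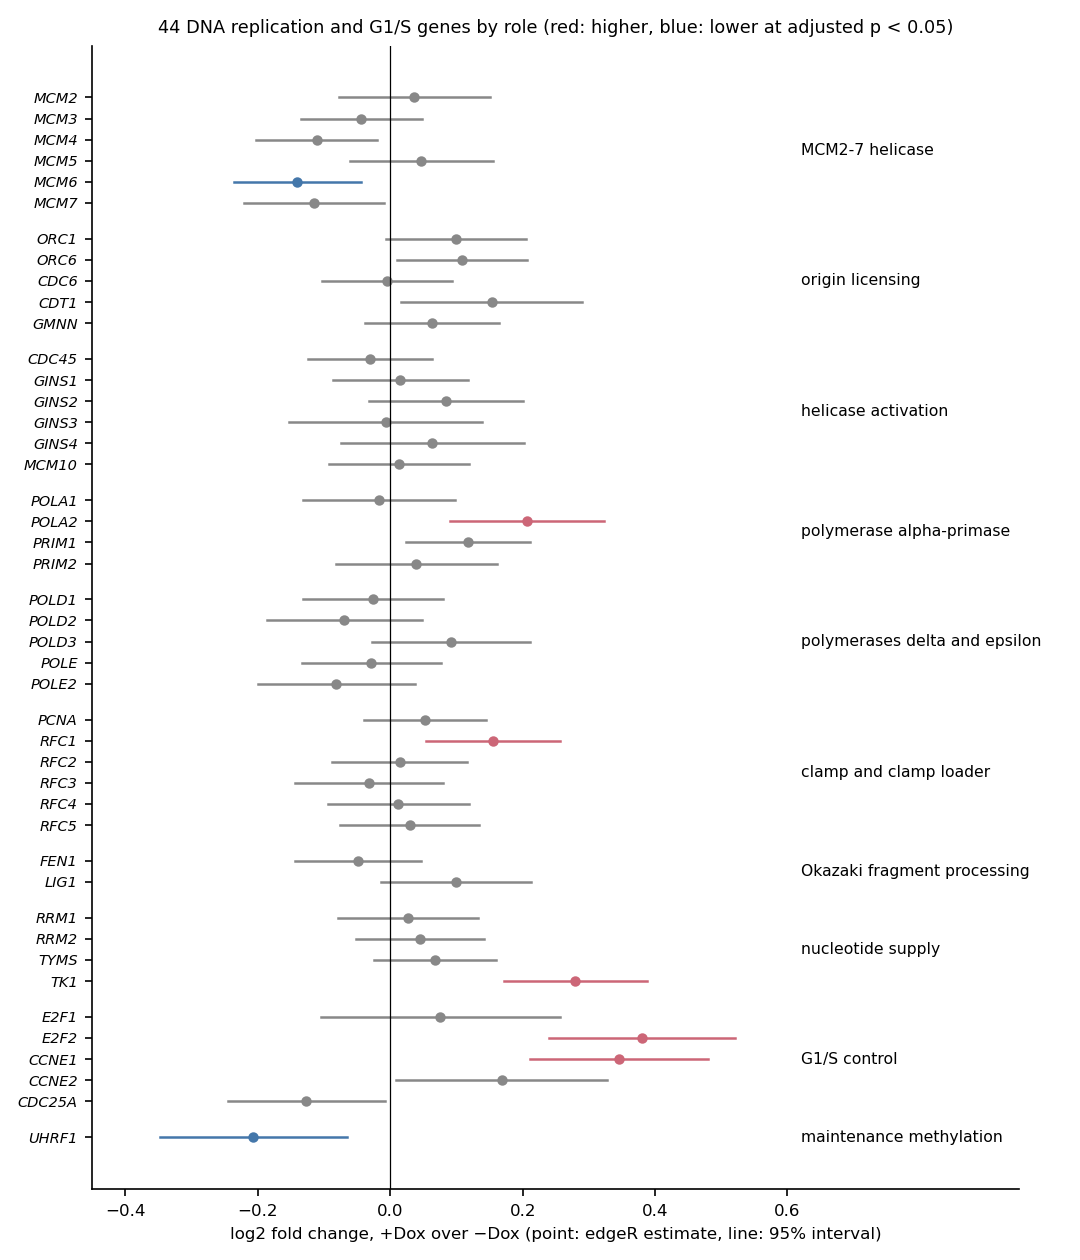
Log2 fold change of each of the 44 genes in +Dox over −Dox (x axis), by role (y axis), with points for the edgeR estimate and lines for the 95% interval. The 5 red genes rose, the 2 blue genes fell, and all estimates lie between −0.21 (UHRF1) and 0.38 (E2F2).

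In the fit as reported, the 37 genes that did not pass the test were measured closely. Their log2 fold changes lay between −0.13 (CDC25A) and 0.17 (CCNE2), with standard errors of 0.0423 to 0.0834. The 95% intervals reached from −0.25 to 0.33, so that in this fit none of the 37 allowed a change above 1.26-fold in either direction, interval by interval. Under other settings some of their estimates lay outside that range of fold changes, as far as −0.20 (MCM4) and 0.26 (CCNE2). Intervals for those settings are not given here, so the limit of 1.26-fold is that of the fit as reported. For 30 of the 37 the interval of the fit as reported included 0.

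Values of replicates 1, 2 and 3 are given in that order, −Dox first. The G1/S control genes held both of the largest fold changes of the list, in E2F2 and CCNE1. E2F2 (ENSG00000007968.7, chromosome 1, 23506438 to 23531233, minus strand) encodes an activator E2F. It was at 13.3, 12.97 and 13.1 CPM in −Dox and 16.9, 17.4 and 16.98 CPM in +Dox replicates 1, 2 and 3. All +Dox libraries were above all −Dox libraries, with a gap far wider than the spread within either group (13.1 ± 0.17 against 17.1 ± 0.286 CPM, SD, n = 3 each). This was a rise of 30.2% (log2 fold change 0.38, standard error 0.0649, adjusted p = 0.00168).

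CCNE1 (ENSG00000105173.14, chromosome 19, 29811991 to 29824312, plus strand) encodes cyclin E1, the partner of CDK2 at the G1/S border. Its level was 28.8, 31.4 and 27.4 CPM in −Dox and 38.4, 36.97 and 36.03 CPM in +Dox replicates. Again every +Dox library was higher, by 27.1% in the fit (log2 fold change 0.35, standard error 0.0619, adjusted p = 0.00232). On the TPM scale CCNE1 stood at 17.97, 18.2 and 17.3 TPM in −Dox and 23.4, 23.5 and 21.3 TPM in +Dox.

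The other 3 genes of this role did not pass the test. CCNE2, cyclin E2, was at 19.5, 20.6 and 19.4 CPM in −Dox and 20.4, 24.6 and 21.8 CPM in +Dox, and the groups overlapped (log2 fold change 0.17, standard error 0.0738, adjusted p = 0.152). INTS8 on the opposite strand shares 37.0% of the exon bases of CCNE2 and was itself higher in +Dox (log2 fold change 0.16, edgeR adjusted p = 0.0261), and without a known strand setting reads of the pair may not be separable. E2F1, the best known activator E2F, was at 16.9, 20.9 and 20.4 CPM and 21.8, 19.3 and 20.1 CPM, with −Dox replicate 1 the lowest of the 6 (log2 fold change 0.075, 95% interval −0.11 to 0.26). CDC25A, the phosphatase that activates the cyclin E kinase, was at 63.01, 65.6 and 58.2 CPM and 57.2, 56.4 and 57.5 CPM. All CDC25A values of +Dox lay below those of −Dox, but the difference did not pass the test (log2 fold change −0.13, standard error 0.0547, adjusted p = 0.144). Per length, the levels over the 6 libraries fell in the order CDC25A at 21.3, CCNE1 at 20.3, CCNE2 at 12.5, E2F1 at 7.08 and E2F2 at 2.91 TPM, so the gene with the highest fold change was the lowest of all 44 in level.

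Nucleotide supply held the third clear rise. TK1 (ENSG00000167900.12, chromosome 17, 78174091 to 78187233, minus strand), thymidine kinase of the salvage pathway, was at 101, 111 and 108 CPM in −Dox and 131, 126 and 131 CPM in +Dox replicates 1, 2 and 3. The lowest +Dox value exceeded the highest −Dox value by more than the whole range within −Dox. The rise was 21.4% (log2 fold change 0.28, standard error 0.0496, adjusted p = 0.00217), and it lay mostly on the canonical transcript TK1-201, at 71.4 ± 1.06 TPM in −Dox and 86.1 ± 1.37 TPM in +Dox (SD, n = 3). TYMS, thymidylate synthase of the de novo route to the same nucleotide, was at 232, 233 and 231 CPM and 242, 238 and 249.5 CPM. Those groups did not overlap either, yet the difference of 4.79% did not pass the test (edgeR adjusted p = 0.334). ENOSF1 on the opposite strand shares 39.9% of the exon bases of TYMS and had a log2 fold change of 0.033. RRM1 and RRM2, the subunits of ribonucleotide reductase, had log2 fold changes of 0.027 and 0.044 with 95% intervals of −0.078 to 0.13 and −0.052 to 0.14. Neither sign was settled, since over the other settings of the fit RRM1 lay between −0.063 and 0.057 and RRM2 between −0.064 and 0.062.

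**Figure D2:**
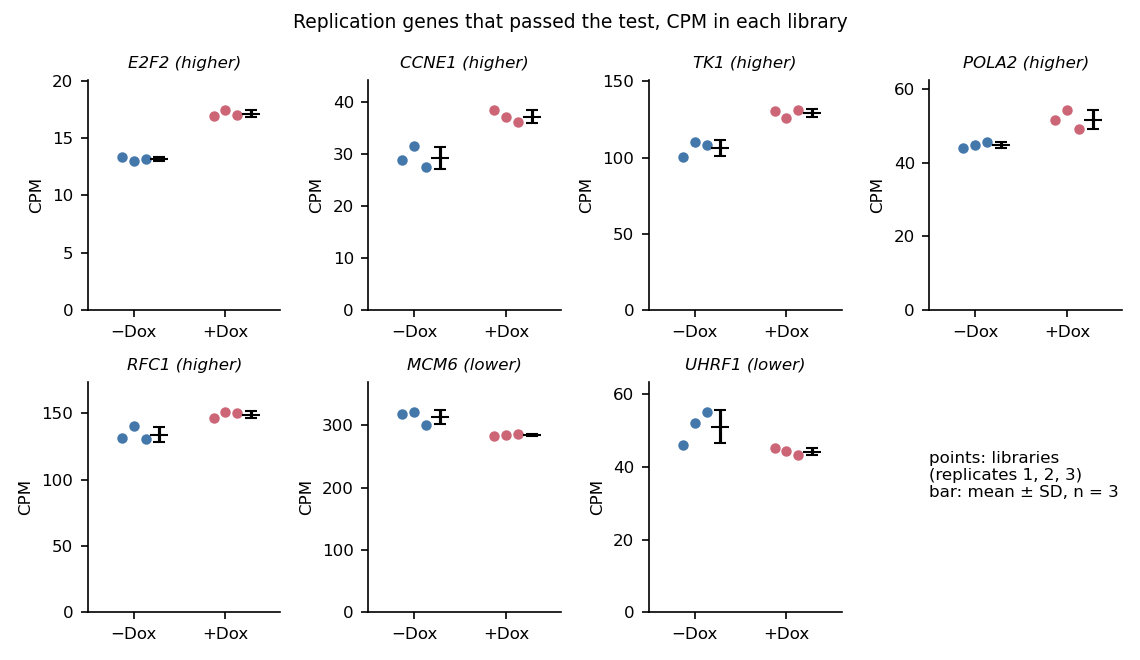
CPM (y axis, from 0) of the 7 genes that passed the test in each −Dox and +Dox library (points), with the mean and SD of the 3 libraries (black). The 5 genes that rose and MCM6 show separate groups, and UHRF1 nearly touches, with 45.9 CPM in −Dox replicate 1 and 45.1 CPM in +Dox replicate 1.

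Of the MCM2 to MCM7 helicase genes, which unwind DNA at the fork, 1 fell and 0 rose, against 7.68% lower and 8.16% higher of all genes tested. At an unadjusted p under 0.05 edgeR put 3 lower and 0 higher, against 13.8% lower and 14.9% higher of all genes tested. MCM6 (ENSG00000076003.5, chromosome 2, 135839626 to 135876443, minus strand) was at 319, 321 and 301 CPM in −Dox and 283, 284 and 287 CPM in +Dox replicates. The +Dox values were tightly grouped and all below −Dox, and MCM6 fell by 9.27% in the fit (log2 fold change −0.14, standard error 0.0442, adjusted p = 0.0481), just past the threshold. MCM4 was at 359.9, 358 and 346 CPM and 329, 331 and 324 CPM. Its groups did not overlap, but it did not pass the test (log2 fold change −0.11, standard error 0.0424, adjusted p = 0.0983). MCM7, the most abundant of the 6 at 161 TPM, was at 384, 415 and 426 CPM and 384, 369 and 378 CPM. The groups met at −Dox replicate 1, and the difference did not pass the test either (log2 fold change −0.12, standard error 0.049, adjusted p = 0.14). MCM2, MCM3 and MCM5 had log2 fold changes of 0.036, −0.044 and 0.047, all with intervals that included 0. The other settings of the fit put MCM2 between −0.024 and 0.080 and MCM5 between −0.059 and 0.077, so neither has a settled sign. Because the 6 subunits form 1 ring, their sum was also computed. In CPM it was 1414, 1449 and 1436 in −Dox and 1355, 1336 and 1341 in +Dox, and its mean fell by 6.20%. In TPM it was 515, 494 and 509 TPM in −Dox and 464, 467 and 437 TPM in +Dox replicates 1, 2 and 3, and on both scales every +Dox sum was below every −Dox sum. The TPM mean was 506 ± 11.04 TPM in −Dox and 456 ± 16.3 TPM in +Dox (SD, n = 3). MCM7, MCM4 and MCM6 together made up most of these sums. Part of the transcripts of MCM4 carry a retained intron, and the largest of these, MCM4-213, went from 25.7 ± 1.78 to 16.98 ± 3.95 TPM (SD, n = 3), whereas the canonical MCM4-222 was at 62.3 ± 0.695 and 58.7 ± 3.72 TPM, and single transcripts were not tested.

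None of the 5 origin licensing genes passed the test with edgeR or DESeq2 on all transcripts, whereas 15.8% of all genes tested passed with edgeR. By edgeR 2 of the 5 were higher at an unadjusted p under 0.05, against 14.9% of all genes tested. On protein-coding transcripts alone ORC6 passed (log2 fold change 0.23, edgeR adjusted p = 0.0251). ORC6, a subunit of the origin recognition complex, was at 82.3, 81.7 and 84.7 CPM in −Dox and 89.3, 88.97 and 89.9 CPM in +Dox. All +Dox values were higher by a small step (log2 fold change 0.11, standard error 0.0451, adjusted p = 0.131). CDT1, which loads the helicase, was at 36.5, 41.9 and 41.00 CPM and 45.96, 42.1 and 44.7 CPM, with the lowest +Dox library just above the highest −Dox library (log2 fold change 0.15, edgeR adjusted p = 0.128). GMNN, geminin, the inhibitor of CDT1 and the second most abundant of the 44 at 225 TPM, was at 209, 222 and 212 CPM and 229, 215 and 228 CPM. Its groups overlapped (log2 fold change 0.063). ORC1, the largest origin recognition subunit, had a log2 fold change of 0.099 with groups apart, and the loading factor CDC6 one of −0.0047 with a 95% interval of −0.10 to 0.094.

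None of the 6 helicase activation genes passed the test. CDC45, the most abundant of these genes at 162 TPM, was at 269, 268 and 262 CPM in −Dox and 268, 254 and 261 CPM in +Dox. The 4 subunits of GINS, which with CDC45 completes the active helicase, and MCM10, which acts when origins fire, lay close to 0. GINS1, GINS2, GINS3, GINS4 and MCM10 had log2 fold changes of 0.015, 0.084, −0.0070, 0.063 and 0.013. The groups overlapped for all 6 genes, and 0 of the 6 had an unadjusted p under 0.05. Among all genes tested, 15.8% passed, 28.6% had an unadjusted p under 0.05 and 33.2% had groups that did not overlap. GINS4 depended on the transcript lengths used, since its TPM values were 16.6, 15.7 and 16.2 TPM in −Dox and 19.4, 18.7 and 18.3 TPM in +Dox, and with an offset for average transcript length its log2 fold change was 0.25 (edgeR adjusted p = 0.0403).

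Among the polymerases, POLA2 (ENSG00000014138.10, chromosome 11, 65261913 to 65305959, plus strand), the B subunit of polymerase alpha, rose. It was at 44.01, 44.7 and 45.6 CPM in −Dox and 51.5, 54.2 and 49.2 CPM in +Dox replicates. The −Dox values were close together and the +Dox values all higher, by 15.4% in the fit (log2 fold change 0.21, standard error 0.0536, adjusted p = 0.0196). On protein-coding transcripts alone its log2 fold change was 0.097 (edgeR adjusted p = 0.246). A gene without a name on the same strand, ENSG00000285816, shares 16.8% of the exon bases of POLA2 and rose as well, from 0.227 ± 0.211 to 0.874 ± 0.343 CPM (SD, n = 3, edgeR adjusted p = 0.036). POLA1, the catalytic subunit, had a log2 fold change of −0.017. The primase subunit PRIM1 was at 101, 103 and 102 CPM and 109.9, 110.1 and 112 CPM, with narrow groups that did not overlap, but the difference of 8.44% did not pass the test (edgeR adjusted p = 0.0894). PRIM2, the large primase subunit, had a log2 fold change of 0.039.

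The 5 genes of polymerases delta and epsilon did not pass the test with edgeR or DESeq2, whereas 15.8% of all genes tested passed with edgeR. By edgeR 0 of the 5 had an unadjusted p under 0.05, against 28.6% of all genes tested. POLD2, a delta subunit and the most abundant of them at 93.4 TPM, was at 143, 162 and 154 CPM in −Dox and 150.1, 139.6 and 148 CPM in +Dox (log2 fold change −0.069). POLD1 and POLE, the catalytic subunits, had log2 fold changes of −0.026 and −0.028, the epsilon subunit POLE2 one of −0.082 and the delta subunit POLD3 one of 0.092. The summed level of the 5 genes was 221 ± 9.49 TPM in −Dox and 202 ± 7.99 TPM in +Dox (SD, n = 3), with no overlap of the groups. In CPM, however, the sums were 427, 452 and 442 in −Dox and 431, 428 and 429 in +Dox, and the groups overlapped.

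In the clamp and its loader, RFC1 (ENSG00000035928.17, chromosome 4, 39287456 to 39366375, minus strand), the large subunit of replication factor C, rose from 131, 140.2 and 130.3 CPM in −Dox to 146, 151 and 150.2 CPM in +Dox replicates. Every +Dox library was higher, by 11.4% in the fit (log2 fold change 0.16, standard error 0.0469, adjusted p = 0.0405). The small subunits RFC2, RFC3, RFC4 and RFC5 had log2 fold changes of 0.014, −0.032, 0.012 and 0.029, all with overlapping groups. PCNA, the sliding clamp and the most abundant of the 44 at 266 TPM, was at 284, 294 and 291 CPM and 296, 299 and 306 CPM. The groups lay side by side without overlap, and the interval of the log2 fold change was −0.040 to 0.14. For the Okazaki fragment enzymes, FEN1, the flap endonuclease, was at 181, 182 and 172 CPM and 174, 171 and 172 CPM (log2 fold change −0.049), and LIG1, DNA ligase 1, had a log2 fold change of 0.099 (edgeR adjusted p = 0.24).

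UHRF1 (ENSG00000276043.5, chromosome 19, 4903080 to 4962154, plus strand), which guides DNMT1 to newly copied DNA to maintain methylation, was at 45.9, 52.1 and 54.9 CPM in −Dox and 45.1, 44.2 and 43.2 CPM in +Dox replicates. The +Dox values were tight and the −Dox values spread, with −Dox replicate 1 close to +Dox. UHRF1 fell by 13.3% in the fit (log2 fold change −0.21, standard error 0.0651, adjusted p = 0.0481). Its partner DNMT1, which is outside the 44, had a log2 fold change of −0.11 (edgeR adjusted p = 0.143).

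**Figure D3:**
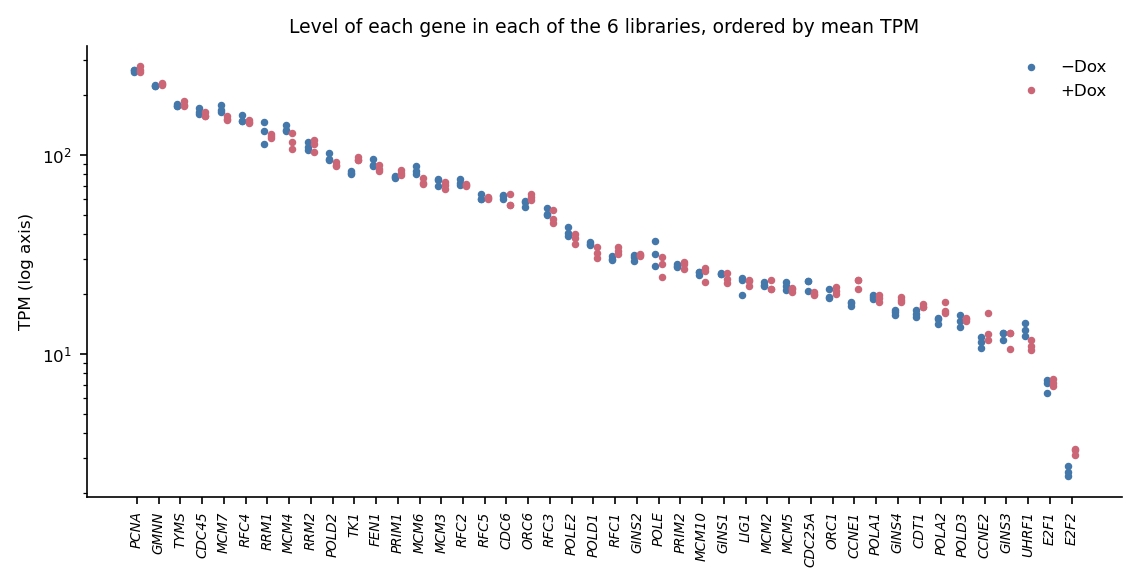
TPM (y axis, log scale) of each of the 44 genes (x axis, ordered by mean TPM) in each −Dox (blue) and +Dox (red) library. Levels run from 2.91 TPM for E2F2 to 266 TPM for PCNA, and within most genes the 6 libraries lie close together beside that range.

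Levels differed far more between the genes than between the groups. Mean TPM over the 6 libraries ran from 2.91 for E2F2 to 266 for PCNA, with a median of 32.8. PCNA, GMNN, TYMS, CDC45 and MCM7 led the order, and POLD3, CCNE2, GINS3, UHRF1, E2F1 and E2F2 closed it. The 44 genes summed to 2860 TPM, 2814 and 2833 TPM in −Dox and to 2762, 2869 and 2724 TPM in +Dox replicates 1, 2 and 3. The groups overlapped, since +Dox replicate 2 was the highest of the 6. Summed by role, with no test, the TPM of polymerase alpha-primase (139, 139.6 and 139.6 TPM in −Dox, 141, 151 and 144 TPM in +Dox) and of G1/S control (61.9, 63.2 and 58.8 TPM in −Dox, 65.9, 70.5 and 63.95 TPM in +Dox) lay higher in +Dox without overlap. The TPM sums of origin licensing, helicase activation, the clamp and its loader, Okazaki processing and nucleotide supply overlapped between the groups. In CPM the sums of licensing, polymerase alpha-primase, the clamp and its loader, nucleotide supply and G1/S control were higher in +Dox without overlap, so several of these orders depend on the scale.

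The calls differed in how well they stood without single libraries. TK1 and CCNE1 passed under all 15 other settings of the fit, with log2 fold changes of 0.23 to 0.30 and 0.30 to 0.40. E2F2 passed under 14 of the 15 and did not with limma on log2(TPM + 1) (log2 fold change 0.25, adjusted p = 0.194), a scale that shrinks the change of a gene at this low level. POLA2 passed under 9, UHRF1 under 7, MCM6 under 6 and RFC1 under 5, and their signs were the same in all 15. Among the genes that did not pass, CDC6, E2F1, GINS1, GINS3, MCM10, MCM2, MCM5, POLA1, PRIM2, RFC2, RFC3, RFC4, RFC5, RRM1 and RRM2 were higher under some settings and lower under others, so that their values above give no direction. POLA2 did not pass without −Dox replicate 2 (edgeR adjusted p = 0.0715), +Dox replicate 1 (0.0528) or +Dox replicate 2 (0.0867). RFC1 passed without −Dox replicate 2 only (edgeR adjusted p = 0.0439), MCM6 without −Dox replicate 3 only (0.0480), and UHRF1 without −Dox replicate 1 only (0.00418), their adjusted p otherwise reaching 0.143, 0.154 and 0.193 when 1 library was left out. The number of the 44 that changed was 3 without +Dox replicate 1, 3 without +Dox replicate 2, 4 without −Dox replicate 2 and 4 without +Dox replicate 3. Calls among all genes tested fell in the same fits, to 2421 of 21106, 2486 of 20954, 2267 of 21098 and 2283 of 21060. They numbered 3333 of 21045 in the fit with all 6 libraries.

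**Figure D4:**
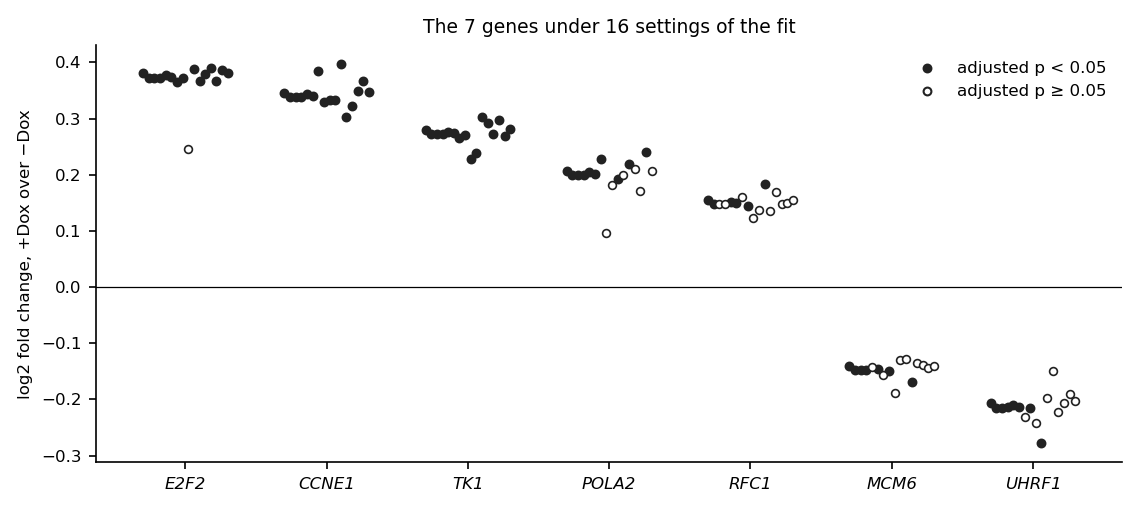
Log2 fold change in +Dox over −Dox (y axis) of the 7 genes that passed the test (x axis), under the 16 settings of the fit, filled where the adjusted p was under 0.05. E2F2, CCNE1 and TK1 are filled almost throughout, whereas POLA2, RFC1, MCM6 and UHRF1 keep their sign but are open under 6 to 10 settings.

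The transcripts of each gene gave a second readout that the list did not use. The share of TPM on protein-coding transcripts was compared with limma for 37 of the 44 genes, and 0 of 37 passed at an adjusted p under 0.05, as did 0 of all 8649 genes tested (0% called). At an unadjusted p under 0.05, 1 of the 37 genes and 7.53% of all genes differed. That gene was CDC25A, at 98.5%, 97.1% and 99.1% coding in −Dox and 100%, 100% and 99.3% in +Dox (adjusted p = 0.573 by limma). The next smallest p was that of POLD1, at 52.6 ± 1.97% and 57.8 ± 2.19% (SD, n = 3, adjusted p = 0.707 by limma). RRM2 had the lowest share, 21.7 ± 4.59% in −Dox and 20.3 ± 4.99% in +Dox (SD, n = 3), and its TPM lay mostly on annotated transcripts with a retained intron. POLE and LIG1 were also mostly on transcripts of annotated types other than protein-coding, at 29.1 ± 3.99% and 34.4 ± 1.64% coding in −Dox and 31.9 ± 2.11% and 34.8 ± 0.643% in +Dox (SD, n = 3).

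Other cell cycle genes are given beside the 44, from lists written with earlier results of these libraries known. Their counts stand against 8.16% higher and 7.68% lower (15.8%) of all genes tested, and 26.8% changed among genes at or above the mean CPM of the lowest of the 44. In a wider list of 46 replication and S phase genes, 9 rose and 3 fell, a share between that 15.8% and that 26.8%, with a median log2 fold change of 0.020. Among those with the smallest p were the histone chaperone ASF1B (log2 fold change 0.36, edgeR adjusted p = 0.00241), the nucleotide pyrophosphatase DCTPP1 (−0.28, 0.00572), the nuclease and helicase DNA2 (0.24, 0.0094) and the fork protection factor TIPIN (−0.28, 0.0137). Without −Dox replicate 3, 6 of the 46 changed, and without +Dox replicate 3, 5 did. Fewer of all genes tested changed in those fits too, 2365 of 21097 and 2283 of 21060, against 3333 of 21045.

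Of 17 genes in a list of E2F factors, pocket proteins and other regulators around them, 3 rose and 0 fell (median 0.077), again a share between 15.8% and 26.8%. They were CDC25C, a phosphatase that activates CDK1 for entry into mitosis and is neither an E2F factor nor a pocket protein (log2 fold change 0.31, edgeR adjusted p = 0.00196), the pocket protein RB1 (0.26, 0.0116) and the E2F partner TFDP2 (0.16, 0.0336), and 1 of the 17 changed without −Dox replicate 2 or without +Dox replicate 3. Of all genes tested, 2267 of 21098 and 2283 of 21060 changed in those fits, against 3333 of 21045 in the fit as reported. At an unadjusted p under 0.05, 5 of the 17 were higher and 1 lower, against 14.9% higher and 13.8% lower of all genes tested. Of 12 D-type cyclins, CDK4/6 and CDK inhibitors, 10 were tested, 2 rose and 2 fell (median 0.034), a share above both. CCND1, cyclin D1, was at 16.5, 16.4 and 17.1 CPM in −Dox and 8.79, 7.49 and 9.10 CPM in +Dox, a log2 fold change of −0.98 (edgeR adjusted p = 1.01e-05). CCND2, cyclin D2, fell too (−0.38, 0.000789), whereas the inhibitors CDKN2C (0.41, 0.000282) and CDKN1B (0.25, 0.00703) rose. CDKN2A and CDKN2B were at 0 TPM and were not tested.

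Of 30 genes of G2/M and mitosis, 14 rose and 1 fell, against 8.16% higher and 7.68% lower of all genes tested (12.2% and 14.6% of those at or above the mean CPM of the lowest of the 44), with a median log2 fold change of 0.16 against 0.0061. The smallest p were those of CDC20, an activator of the anaphase-promoting complex (log2 fold change 0.44, edgeR adjusted p = 0.000295), NUSAP1 (0.32, 0.000444), the kinetochore subunit NDC80 (0.34, 0.000533), the mitotic motor CENPE (0.29, 0.00213) and NUF2 (0.25, 0.00376). AURKA was the gene that fell (−0.17, 0.0194). The count of 15 was 9 without −Dox replicate 2, without −Dox replicate 3 or without +Dox replicate 3. All genes changed in those fits numbered 2267 of 21098, 2365 of 21097 and 2283 of 21060, against 3333 of 21045. Whether the fold changes of these lists differ from those of the 44 was not tested. The E2F words stood in 9 of 36 promoters of the wider list, 3 of 14 of the E2F and pocket list, 0 of 9 of the D-type cyclin list and 3 of 24 of the G2/M list (12.5%), and CCAAT in 19 of those 24 (79.2%).

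**Figure D5:**
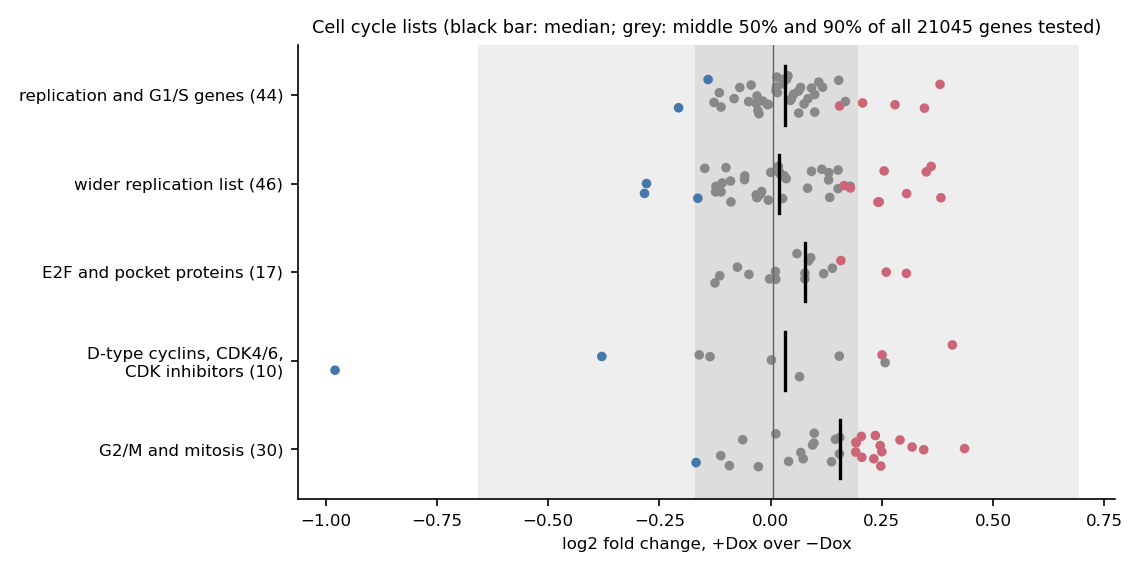
Log2 fold change in +Dox over −Dox (x axis) of the tested genes of each list (y axis), with red for genes that rose, blue for genes that fell and a black bar for the median. The grey bands hold the middle 50% (−0.17 to 0.19) and 90% (−0.65 to 0.69) of all 21045 genes tested, and the medians run from 0.020 for the wider replication list to 0.16 for G2/M and mitosis.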

How the data were processed

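The 44 genes, the other lists and the tests were chosen with earlier results of these data known. The 6 polyA libraries of K562 cells were sequenced as paired ends of 150 cycles. The authors quantified them with Salmon 1.10.2 (version from the submitters' processing notes, which also name hg38, DESeq2 and STAR) and deposited, per transcript and library, an estimated count, a TPM value and an effective length. The estimated counts are scaled for neither depth nor length, and replicates were not pooled. The deposited TPM values are scaled for effective length and library size. The Salmon index, strand setting and bias settings are not given in the sources used here, so overlapping genes and near-identical copies are uncertain.

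Of 252045 transcripts, 251612 matched GENCODE 44 without regard to version and 433 did not, which held 0.125% to 0.138% of counts. Estimated counts were summed per gene and rounded. The genes kept had a mean count above 10 and were tested in R 4.3.3 with edgeR 4.0.16 (TMM, glmQLFit, glmQLFTest, no covariates), called at an adjusted p under 0.05. Standard errors come from dividing the estimate by the root of its F statistic. The coding share was tested with limma 3.58.1 on the log2 ratio of TPM with 0.1 added, for genes of at least 1 TPM. With 3 against 3 libraries an exact permutation test cannot go below p = 0.1. The alternatives were DESeq2 1.42.0, RLE size factors, 3 other count filters, a transcript length offset, coding transcripts alone, limma on log2(TPM + 1), 6 fits without 1 library and the replicate number as a block, all recomputed with the same adjustment. For the coding share they were a pseudocount of 1 TPM, a minimum of 5 TPM, estimated counts, 1 library left out and the block.

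Genes named are all members that passed, the most abundant of each role, up to 5 of each other list by p, up to 5 members by p of the coding share, PCBP1, the markers and overlapping genes. Other members are named with their values because all 44 are accounted for. Not every gene under this rule is reported here. DNMT1 and the retained-intron transcripts were named after their values were seen. Promoters were those of the RefSeq start nearest the canonical transcript. The steps were tested on simulated data. Replicates of a group differed by more than counting noise (chi-square 8.32 to 17.8 per gene between pairs, against 1). Tables and figures were made with Python 3.11.15, pandas 2.3.3 and matplotlib 3.10.9.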

Additional observations from a re-analysis of the deposited data

How the results depend on the processing

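Of the 44 genes, 7 changed in the fit as reported, 8 with DESeq2 and 5 to 7 with the other count filters, RLE size factors, coding transcripts alone and the transcript length offset. With limma on log2(TPM + 1), 2 changed. Leaving out 1 library gave 3 to 6. The same TPM fit put the median log2 fold change of the 44 at −0.016, and that of all genes too (−0.016), and leaving out 1 library kept it between 0.016 and 0.044. All genes changed numbered 3333 of 21045, 3939 with DESeq2, 3374 with RLE size factors, 1883 with the length offset and 1586 with TPM. The share of the 44 with DESeq2 was thus close to that of all genes. On coding transcripts alone 2730 of 13337 genes changed, and the other count filters gave 3184 of 27717, 3930 of 35586 and 3656 of 18546. Leaving out 1 library gave 2267 to 3313. In the wider replication list 12 changed, 15 with DESeq2, 6 with the length offset, 5 with TPM and 5 to 12 without 1 library. In the E2F and pocket list 3 changed, 5 with coding transcripts alone, 1 with TPM and 1 to 3 without 1 library. In the D-type cyclin list 4 changed, 5 with DESeq2, 2 with TPM and 4 without any 1 library. In the G2/M list 15 changed, 19 with DESeq2, 9 with TPM and 9 to 15 without 1 library. PCBP1 stayed between 1.90 and 1.98 without 1 library, and the coding share gave 0 of the 37 genes tested (36 with the minimum of 5 TPM) in every setting. E2F1 turned to −0.017 without −Dox replicate 1, and leaving out 1 library put it between −0.017 and 0.13. MCM4 passed with DESeq2 (adjusted p = 0.0288), ORC6 with coding transcripts alone (0.0251 by edgeR) and MCM7 without −Dox replicate 1 (0.0370 by edgeR). The causes were not tested, other than that fewer libraries leave fewer degrees of freedom.

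The labels do not say whether the replicate numbers pair the samples. Deviations of same-numbered libraries correlated at −0.066, −0.16 and 0.024, and those of differently numbered libraries at −0.13 to 0.19. With so few libraries these values cannot tell whether samples were paired. With the replicate block, 3 of the 44 changed (E2F2, CCNE1 and TK1), 2490 of all genes and 9 of the G2/M list. The block left 8 of the wider list and called 0 of the 37 for the coding share.

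Standard errors on the log2 scale ran from 0.0423 to 0.0834, with the widest for E2F1 and CCNE2, which are among the genes with the fewest counts. The 44 genes had at least 981 counts in each library, and the parts of counting and of the spread between libraries in these errors were not separated. Estimated counts share reads between overlapping genes and transcripts by model, so single transcripts are less certain than gene sums, and the intervals cover the spread between these 6 libraries alone.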

Other observations

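Within the MCM2 to MCM7 sum, MCM2 held 4.32%, 4.44% and 4.52% of the summed TPM in −Dox and 4.56%, 5.06% and 4.87% in +Dox, and MCM3 held 14.8%, 14.1% and 14.7% and 15.2%, 15.6% and 15.4%. For both, every +Dox share was above every −Dox share, whereas those of MCM4, MCM5, MCM6 and MCM7 overlapped. The mean TPM of MCM2 and MCM3 themselves did not rise. It was 22.4 ± 0.568 in −Dox and 22.03 ± 1.37 in +Dox for MCM2, and 73.5 ± 3.30 and 70.2 ± 2.84 for MCM3 (SD, n = 3). MCM7 held 32.5%, 33.1% and 34.8% of the summed TPM in −Dox and 32.4%, 33.5% and 34.1% in +Dox, and MCM5 held 4.09%, 4.65% and 4.31% and 4.62%, 4.55% and 4.69%. MCM7 was thus 7.71 ± 0.51 times MCM5 in −Dox and 7.22 ± 0.178 times in +Dox (SD, n = 3), although the proteins sit in the ring as equals. The ratio of CDT1 to its inhibitor GMNN was 0.0718 ± 0.00335 in −Dox and 0.0767 ± 0.00123 in +Dox (SD, n = 3), and the ratio of E2F1 to E2F2 was 2.71 ± 0.344 and 2.22 ± 0.17 (SD, n = 3), each on the TPM scale and none of them tested. The groups overlapped for each of these ratios, that of MCM7 to MCM5 included. RRM2P3, a copy of RRM2, averaged 3.16 CPM without Dox and 2.37 CPM with it (edgeR adjusted p = 0.0843).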
